A study of Macaca mulatta with 4 samples.

Results

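The 2 corticosteroid receptors and 8 well-known glucocorticoid-induced genes were followed in prefrontal cortex of infant rhesus macaques (Macaca mulatta), in libraries from animals exposed to sevoflurane, an inhaled general anaesthetic, and from controls. The members were the rows of the deposited count table named NR3C1, NR3C2, FKBP5, PDK4, TSC22D3, SGK1, ZBTB16, KLF9, CEBPD and ERRFI1, which are 10 of 33618 genes in the table. All 10 passed the filter on low counts, which left 17693 genes. The sevoflurane group had 2 libraries (replicates 2 and 3) and the control group 2 libraries (replicates 2 and 3), all labelled brain and wild type. Per the labels' protocols, exposure was to about 2.5 to 3% sevoflurane for 4 hours, 3 times, first near postnatal day 7 and then 14 and 28 days later, and the prefrontal cortex was taken straight after the last exposure. The control label gives no agent. Whether control animals were handled, fasted or given oxygen, and at what time of day cortex was taken, is not stated by the labels, and each of these cannot be told apart from the anaesthetic. The labels do not say that replicates are separate animals, so the p-values measure the spread between these libraries, which may be technical.

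Glucocorticoids such as cortisol enter cells and bind 2 related receptors. The mineralocorticoid receptor NR3C2 has the higher affinity and is occupied at resting hormone levels, while the glucocorticoid receptor NR3C1 is engaged as the hormone rises with stress or the daily peak. The unbound receptor sits in a complex with heat shock protein 90 and its co-chaperones. The bound receptor moves to the nucleus, where it binds palindromic response elements and raises the transcription of target genes within hours. In brain, targets are spread over cell types, with SGK1 best known in oligodendrocytes and FKBP5 and TSC22D3 in many cells.

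The targets did not move as a block. After sevoflurane, FKBP5 was 5.63-fold and PDK4 2.83-fold the control level, and both rose by the test across all genes. The other 6 targets and both receptors were not called. CEBPD was 2.24-fold the control level with groups that did not overlap, TSC22D3, ZBTB16, ERRFI1 and KLF9 had values near 0 on the log2 scale, and SGK1 had a negative value. Calls were made by edgeR's quasi-likelihood test where the p, adjusted by Benjamini-Hochberg across the 17693 genes, was under 0.05. By that rule 0.0622% of all genes were called higher and 0.537% lower after sevoflurane. Among the members, 2 of 10 were called higher and 0 lower, beside a median log2 fold change of 0.05 over the 10 and -0.00 over all genes tested. The members were chosen with earlier results of these data known, and FKBP5 and PDK4 were already known to be called, so their share is a description.

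**Figure D1:**
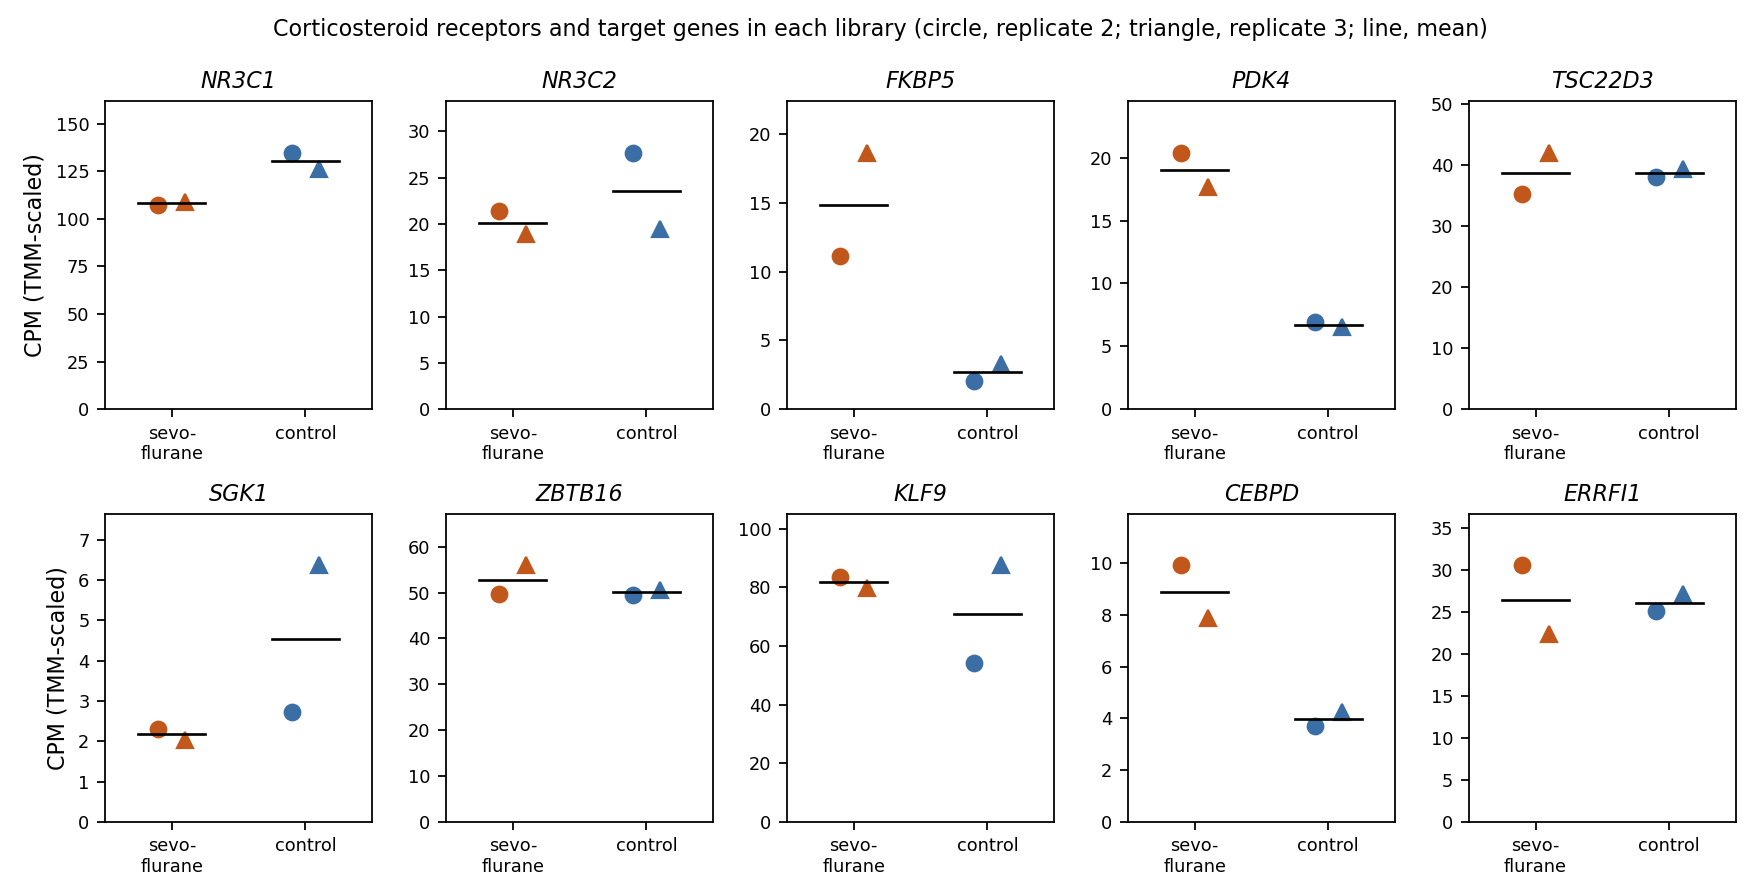
TMM-scaled CPM (vertical axes, each starting at 0) of the 10 genes in the 2 sevoflurane libraries (orange) and the 2 control libraries (blue), with circles for replicate 2, triangles for replicate 3 and a line at each group's mean. FKBP5, PDK4 and CEBPD lie higher in both sevoflurane libraries than in both control libraries, and SGK1 is set apart by control replicate 3 at 6.37 CPM.

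Total counts were 11703857 and 11706115 in sevoflurane replicates 2 and 3, and 10059944 and 7793757 in control replicates 2 and 3. On the first principal component, which held 52.3% of the variance, control replicate 3 lay at 59.6 and the other 3 libraries between -32.0 and -3.12. Control replicate 3 had 20753 genes with a count, against 22782 to 23224 in the other 3. Neuron markers, which check the labelled tissue, were present in every library, with a summed level of 12445 to 12648 CPM in sevoflurane libraries and 10613 to 12769 CPM in control libraries. CPM are read counts relative to each library's TMM-scaled total, and they are compared only within a gene, since no transcript lengths were used. In bulk tissue, fewer cells of a type and less RNA per cell cannot be told apart.

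NR3C1, the glucocorticoid receptor, had 107 and 109 CPM in sevoflurane replicates 2 and 3, against 135 and 127 CPM in control replicates 2 and 3. Both sevoflurane libraries were below both controls, as they were for 20.4% of all genes. Library by library, sevoflurane minus control ran from -0.33 to -0.21 on the log2 scale. The difference of -0.27 on the log2 scale (SE 0.13, 95% interval -0.56 to 0.01, edgeR adjusted p = 0.535) was not called. The interval allows a level between 0.68 and 1.01 times that of controls.

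NR3C2, the mineralocorticoid receptor, had 21.4 and 18.9 CPM in sevoflurane replicates 2 and 3, against 27.7 and 19.5 CPM in control replicates 2 and 3. The groups met within the range of control replicate 3, since sevoflurane replicate 2 lay above it. The log2 fold change was -0.23 (SE 0.22, 95% interval -0.74 to 0.27, edgeR adjusted p = 0.813), and it was 0.05 without control replicate 2. Of the receptors, 0 of 2 were thus called.

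FKBP5 encodes FKBP51, a co-chaperone that binds heat shock protein 90, lowers the receptor's hormone affinity and is itself induced by the receptor, which closes a short negative feedback loop. It had 130 and 220 reads in sevoflurane replicates 2 and 3, against 21 and 25 reads in control replicates 2 and 3. On the CPM scale these were 11.1 and 18.7 in sevoflurane libraries, against 2.05 and 3.32 in controls. The lowest sevoflurane library was above the highest control library, as for 20.8% of all genes. The pair of sevoflurane libraries differed 1.68-fold between themselves, as the controls did 1.62-fold, with replicate 3 the higher in both groups.

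The group means of FKBP5 were 14.9 ± 5.35 CPM after sevoflurane and 2.68 ± 0.895 CPM in controls (SD, n = 2 each), which is 2.49 on the log2 scale (SE 0.38, 95% interval 1.64 to 3.35, edgeR adjusted p = 0.0259). The fold change exceeded those of 99.7% of the tested genes. Set against each other one by one, the sevoflurane libraries exceeded the control libraries by 1.69 to 3.07 on the log2 scale. The call was lost without control replicate 2 (2.16, adjusted p = 0.0578), by limma-voom (adjusted p = 0.0596) and with no filter on low counts (adjusted p = 0.0532), while the value stayed between 2.06 and 2.85 with any 1 library left out.

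PDK4, a mitochondrial kinase that switches off pyruvate dehydrogenase and so spares glucose, is induced by glucocorticoids and also by fasting through other factors. It had 239 and 208 reads in sevoflurane replicates 2 and 3, against 71 and 49 reads in control replicates 2 and 3. The levels were 20.4 and 17.6 CPM in sevoflurane libraries, against 6.93 and 6.50 CPM in controls. The libraries of each group lay close together and the groups were far apart.

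PDK4 averaged 19.0 ± 1.96 CPM after sevoflurane and 6.71 ± 0.305 CPM in controls (SD, n = 2 each), or 1.50 on the log2 scale (SE 0.24, 95% interval 0.96 to 2.04, edgeR adjusted p = 0.0322). Its value ranged from 1.39 to 1.60 with any 1 library left out. The call was lost without control replicate 3 (1.46, adjusted p = 0.0605) and with no filter (adjusted p = 0.0639).

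CEBPD, a transcription factor of the CCAAT/enhancer-binding family that responds to glucocorticoids and to inflammatory signals, had 9.91 and 7.89 CPM in sevoflurane replicates 2 and 3, against 3.71 and 4.24 CPM in control replicates 2 and 3. Both sevoflurane libraries were above both controls, as they were for 3 of the 8 targets and for 20.8% of all genes. Its log2 fold change was 1.16 (SE 0.32, 95% interval 0.43 to 1.90), and the gene did not pass (edgeR adjusted p = 0.223). With 116 and 93 reads after sevoflurane, against 38 and 32 in controls, it is among the less deeply covered members. It was called under 0 of 12 alternatives, with adjusted p from 0.0627 to 0.935 and values from 0.99 to 1.32.

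TSC22D3 encodes GILZ, the glucocorticoid-induced leucine zipper, one of the most widely used markers of receptor activity. It had 35.4 and 42.1 CPM in sevoflurane replicates 2 and 3, against 38.2 and 39.4 CPM in control replicates 2 and 3. The controls lay between the sevoflurane libraries. The log2 fold change was -0.00 (SE 0.17, 95% interval -0.38 to 0.38, edgeR adjusted p = 0.999), and its sign turned in 4 of 12 alternatives. The interval reaches 1.30 times the control level at most, against a lower bound of 3.11 times for FKBP5.

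ZBTB16, a zinc finger transcription factor (PLZF) that is strongly induced by glucocorticoids in many tissues, had 49.7 and 55.9 CPM in sevoflurane replicates 2 and 3, against 49.6 and 50.5 CPM in control replicates 2 and 3. The groups overlapped. Its log2 fold change was 0.08 (SE 0.15, 95% interval -0.27 to 0.42, edgeR adjusted p = 0.926).

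ERRFI1 encodes MIG6, an inhibitor of the EGF receptor that is induced by glucocorticoids and by EGF receptor signalling itself. It had 30.5 and 22.3 CPM in sevoflurane replicates 2 and 3, against 25.1 and 27.1 CPM in control replicates 2 and 3. The controls again lay between the sevoflurane libraries. Its log2 fold change was 0.02 (SE 0.21, 95% interval -0.45 to 0.49, edgeR adjusted p = 0.986).

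KLF9, a Krüppel-like factor induced by glucocorticoids and thyroid hormone in neurons, had 83.7 and 79.7 CPM in sevoflurane replicates 2 and 3, against 54.2 and 87.5 CPM in control replicates 2 and 3. One control library was below both sevoflurane libraries and the other above them. The log2 fold change was 0.21 (SE 0.21, 95% interval -0.26 to 0.68, edgeR adjusted p = 0.821). The sign rests on which control is kept, with 0.59 when control replicate 3 is left out and -0.10 when control replicate 2 is.

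SGK1, a serum- and glucocorticoid-induced kinase that regulates ion channels and transporters, was the thinnest member, with 27 and 24 reads in sevoflurane replicates 2 and 3, against 28 and 48 reads in control replicates 2 and 3. The levels were 2.31 and 2.04 CPM in sevoflurane libraries, against 2.73 and 6.37 CPM in controls. Both sevoflurane libraries were below both controls, as they were for 20.4% of all genes, and control replicate 3 was 2.33 times control replicate 2. The log2 fold change was -1.05 (SE 0.52, 95% interval -2.22 to 0.13, edgeR adjusted p = 0.577), and it was -0.33 without control replicate 3.

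**Figure D2:**
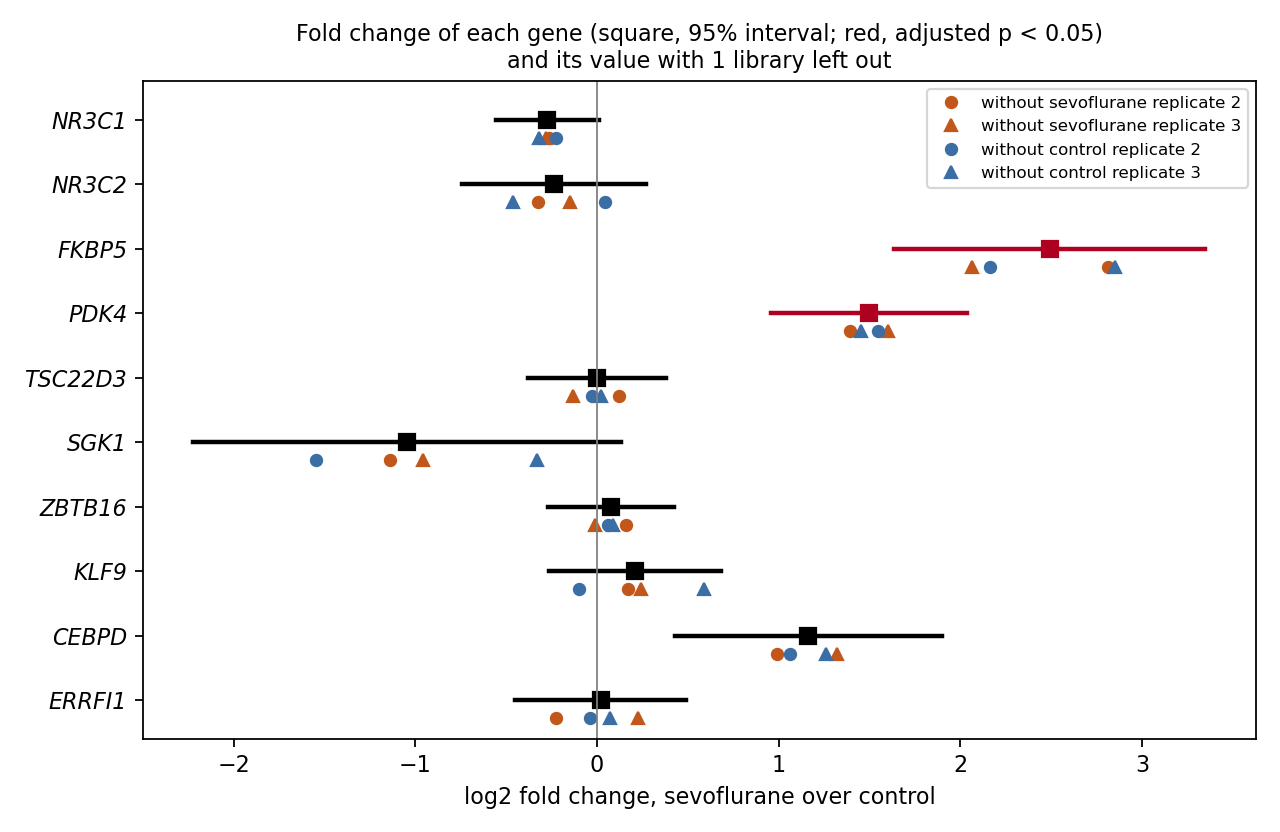
Log2 fold change of sevoflurane over control (horizontal axis) for each gene, as squares with 95% intervals (red where the adjusted p was under 0.05), and below each the value with 1 library left out (orange, a sevoflurane library; blue, a control library; circle, replicate 2; triangle, replicate 3). FKBP5, PDK4 and CEBPD stay right of 0 with any library left out, while KLF9 runs from -0.10 to 0.59 and SGK1 from -1.55 to -0.33.

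Across the 8 targets the log2 fold changes ran from -1.05 for SGK1 to 2.49 for FKBP5, with a median of 0.14. Among TSC22D3, ZBTB16, ERRFI1, KLF9 and SGK1 the highest upper bound of an interval was 0.68, for KLF9, and the lower bounds for FKBP5 and PDK4 were 1.64 and 0.96. CEBPD was left out of that group. Its interval, from 0.43 to 1.90, overlapped those of FKBP5 and PDK4 and also those of KLF9 and ERRFI1. The difference in fold change between genes was not itself tested.

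The deviation of each library from the mean of the 4 shows how the members varied. FKBP5 deviated by 0.82 and 1.56 on the log2 scale in sevoflurane replicates 2 and 3, against -1.51 and -0.87 in control replicates 2 and 3. PDK4 deviated by 0.84 and 0.63 in the sevoflurane libraries, against -0.69 and -0.78 in the controls, and CEBPD by 0.72 and 0.40 in the sevoflurane libraries, against -0.65 and -0.47 in the controls. Within the sevoflurane group FKBP5 was thus highest in replicate 3, and PDK4 and CEBPD in replicate 2.

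SGK1 deviated by -0.36 and -0.53 in sevoflurane replicates 2 and 3, against -0.14 and 1.03 in control replicates 2 and 3. Of 19 tested mature oligodendrocyte markers, 14 were lower after sevoflurane, beside 0.537% of all genes. Of these markers 0 were higher and 5 were not called, with a median log2 fold change of -1.82 (-0.00 over all genes). Their mean deviation was -1.12 and -0.63 in sevoflurane replicates 2 and 3, against 0.55 and 1.19 in control replicates 2 and 3, and their summed level was 2578 to 3819 CPM after sevoflurane, against 9718 to 15331 CPM in controls. None of the 20 listed markers was at 0 in every library, and MBP, the myelin basic protein, fell by 2.22 on the log2 scale (SE 0.29, edgeR adjusted p = 0.0195). Control replicate 3 was the highest library for both SGK1 and these markers, and the part of oligodendrocyte RNA in the SGK1 value was not tested.

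Markers of meningeal and perivascular fibroblasts were highest in sevoflurane replicate 2, with mean deviations of 1.04 and -0.01 in sevoflurane replicates 2 and 3, against -0.02 and -1.01 in control replicates 2 and 3. Their summed level was 792 to 1974 CPM after sevoflurane and 633 to 887 CPM in controls. Of the 17, 0 were at 0 in every library. A positive log2 fold change was found for 15 of 17, beside 49.7% of all genes. At an unadjusted p under 0.05, 7 had a positive value and 0 a negative one, beside 4.35% and 5.57% of all genes. The GABA transporter SLC6A13 was the 1 of 17 called higher (1.43, edgeR adjusted p = 0.0465), beside 0.0622% of all genes. Without sevoflurane replicate 2 the median of these markers was 0.13, beside 0.99 with all libraries. PDK4 had 1.39, CEBPD 0.99 and FKBP5 2.82 without that library. The part of meningeal and perivascular RNA in the PDK4, CEBPD and FKBP5 values was not tested. SLC6A13, of the same marker list, had 1.13 without sevoflurane replicate 2. SLC6A13 was not called in that comparison (edgeR adjusted p = 0.117), nor without control replicate 2 (0.0708) or control replicate 3 (0.0804), and without sevoflurane replicate 3 there were 9 calls among these markers.

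Endothelial, pericyte and smooth muscle, neuron, and blood cell markers had 0 called genes by edgeR in 15, 11, 15 and 7 tested genes, with medians of -0.03, -0.02, 0.14 and 0.74. In the same order, 3, 1, 0 and 0 of them had an unadjusted p under 0.05, beside 9.92% of all genes. CLDN5, the tight junction protein of brain endothelium, had 21.1 and 22.9 CPM in sevoflurane replicates 2 and 3, against 20.2 and 25.3 CPM in controls. In the other glia, GFAP, the filament protein of astrocytes, fell by 1.41 on the log2 scale (edgeR adjusted p = 0.00928) and was the one call among 16 astrocyte markers (median -0.09). Among 14 microglia markers (median -0.36) there were 2 calls, both lower, for the receptor CX3CR1 (-1.03) and the transcription factor SALL1 (-0.93). These astrocyte and microglia counts stand beside 0.537% of all genes called lower. SALL1 was not called without sevoflurane replicate 2 (edgeR adjusted p = 0.149) or control replicate 3 (0.0609).

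**Figure D3:**
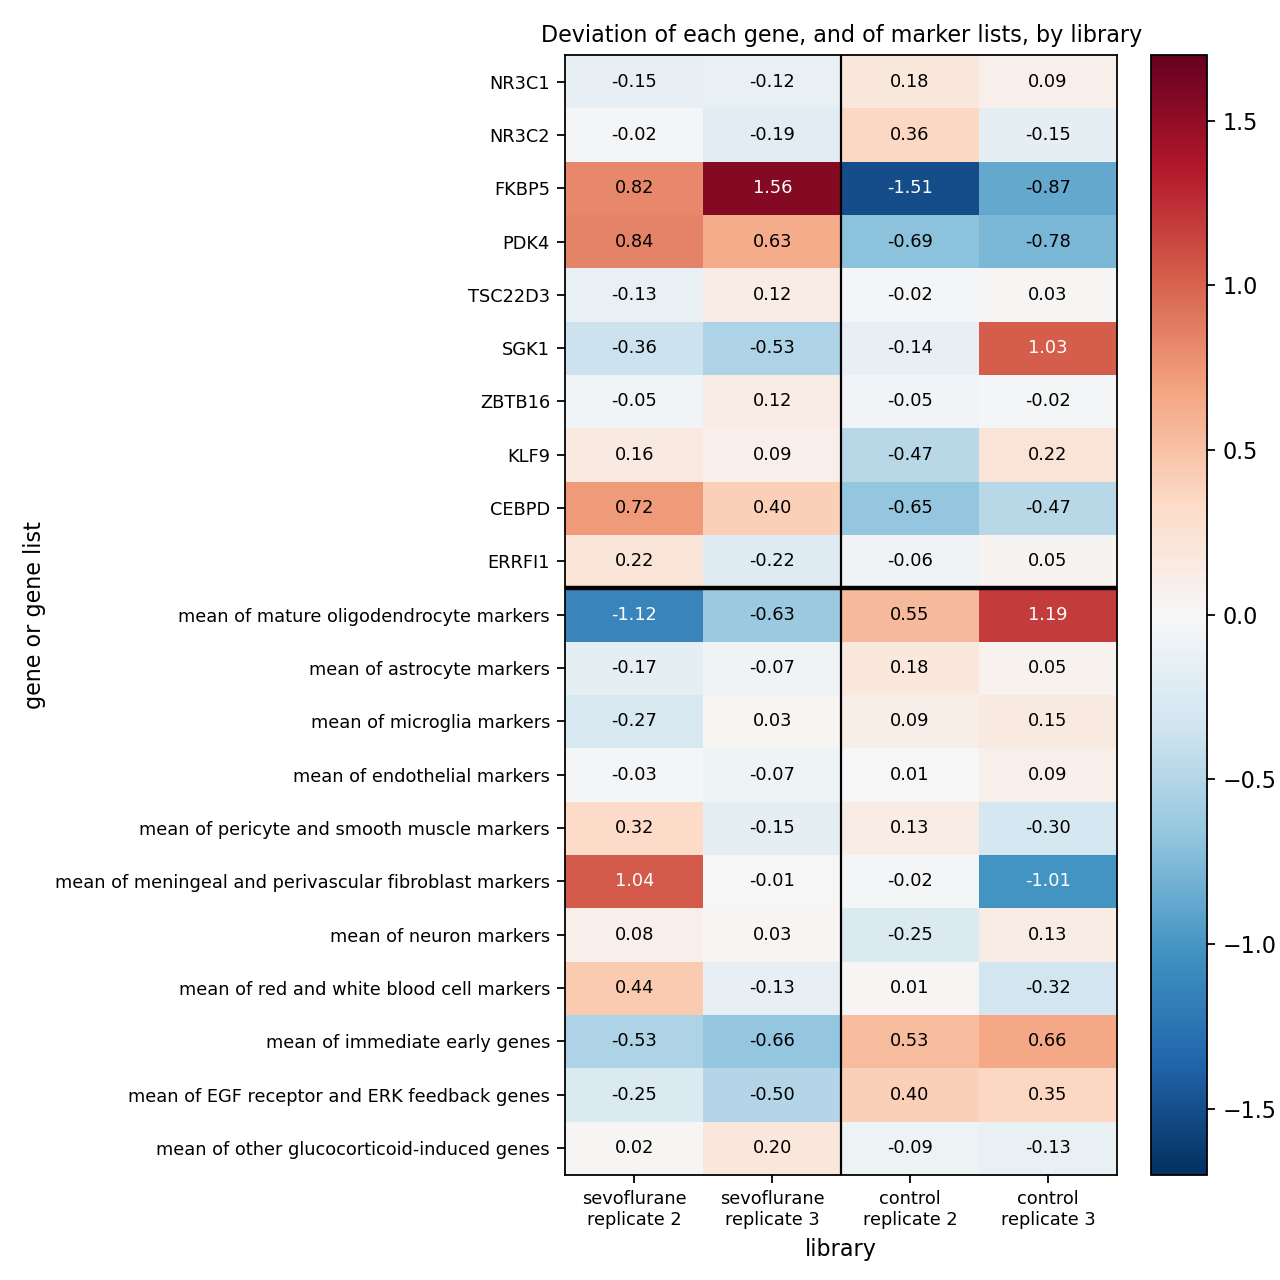
Deviation of each gene from its mean over the 4 libraries (log2 CPM, colour and printed value) in the sevoflurane libraries (left) and control libraries (right), with the mean deviation of marker and pathway lists below the line. FKBP5 and PDK4 are at 0.63 or above in both sevoflurane libraries, SGK1 and the mature oligodendrocyte markers are highest in control replicate 3 (1.03 and 1.19), and the meningeal markers are highest in sevoflurane replicate 2 (1.04).

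A further 30 glucocorticoid-induced genes were listed, of which 29 were matched in the table and 28 tested. None was called by edgeR (0 higher, 0 lower), and 7 had an unadjusted p under 0.05 with a positive value and 3 with a negative one. Over all genes those shares were 4.35% and 5.57%. DESeq2, which called 0.339% of all genes higher and 1.24% lower, called 1 of them, DDIT4, and limma-voom called 0. The list had a median log2 fold change of 0.18, and both sevoflurane libraries lay above both controls for 10 of 28 (35.7%, beside 20.8% of all genes) and below them for 5 of 28 (17.9%, beside 20.4%).

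DDIT4, an inhibitor of mTOR signalling that is induced by glucocorticoids, hypoxia and low energy, had 27.7 and 51.9 CPM in sevoflurane replicates 2 and 3, against 17.0 and 19.0 CPM in control replicates 2 and 3. Both sevoflurane libraries were above the controls, as for 20.8% of all genes, and replicate 3 was the higher, as it was for FKBP5. On the log2 scale the difference was 1.15 (SE 0.28, edgeR adjusted p = 0.154), and DESeq2 gave adjusted p = 0.0128. DDIT4 rested on sevoflurane replicate 3, with 0.63 (edgeR adjusted p = 0.773) without that library and 1.53 (edgeR adjusted p = 5.5e-05) without sevoflurane replicate 2.

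NFKBIA, the inhibitor of NF-kB and a classical receptor target, had 45.3 and 37.6 CPM in sevoflurane replicates 2 and 3, against 24.6 and 31.3 CPM in control replicates 2 and 3 (0.57, SE 0.19, edgeR adjusted p = 0.331). The metallothioneins MT2A (0.85) and MT1X (0.81), which bind zinc, the monoamine oxidase MAOA (0.45, listed under its RefSeq gene number) and TXNIP (0.56), an inhibitor of thioredoxin, also had positive values and were not called. TXNIP depended on which control was kept, with 0.91 (called, edgeR adjusted p = 0.0283) without control replicate 2 and 0.29 (edgeR adjusted p = 0.429) without control replicate 3. Metallothionein genes have near-identical copies, so their reads are uncertain. PNMT, the enzyme that makes adrenaline, had the largest value of the list (1.88, SE 0.73) on 19 and 27 reads after sevoflurane, against 3 and 6 reads in controls.

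The clock gene PER1, a direct receptor target that neuronal activity also induces, had 100.04 and 107 CPM in sevoflurane replicates 2 and 3, against 130.4 and 131 CPM in control replicates 2 and 3. Both sevoflurane libraries were below both controls (-0.34, SE 0.13, edgeR adjusted p = 0.404), as for 20.4% of all genes. DUSP1, a phosphatase of MAP kinases with the same pair of inputs, had 25.9 and 33.8 CPM in sevoflurane libraries, against 26.2 and 35.0 CPM in controls (-0.03, SE 0.21). STOM (-0.68), a membrane protein, and BCL6 (-0.32), a transcriptional repressor, were the other 2 genes with a negative value at an unadjusted p under 0.05. Of 17 immediate early genes, which neuronal firing switches on, 7 were lower and 0 higher, with a median of -1.49. Over all genes 0.537% were called lower and 0.0622% higher. The part of neuronal firing in the PER1 and DUSP1 values was not tested.

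**Figure D4:**
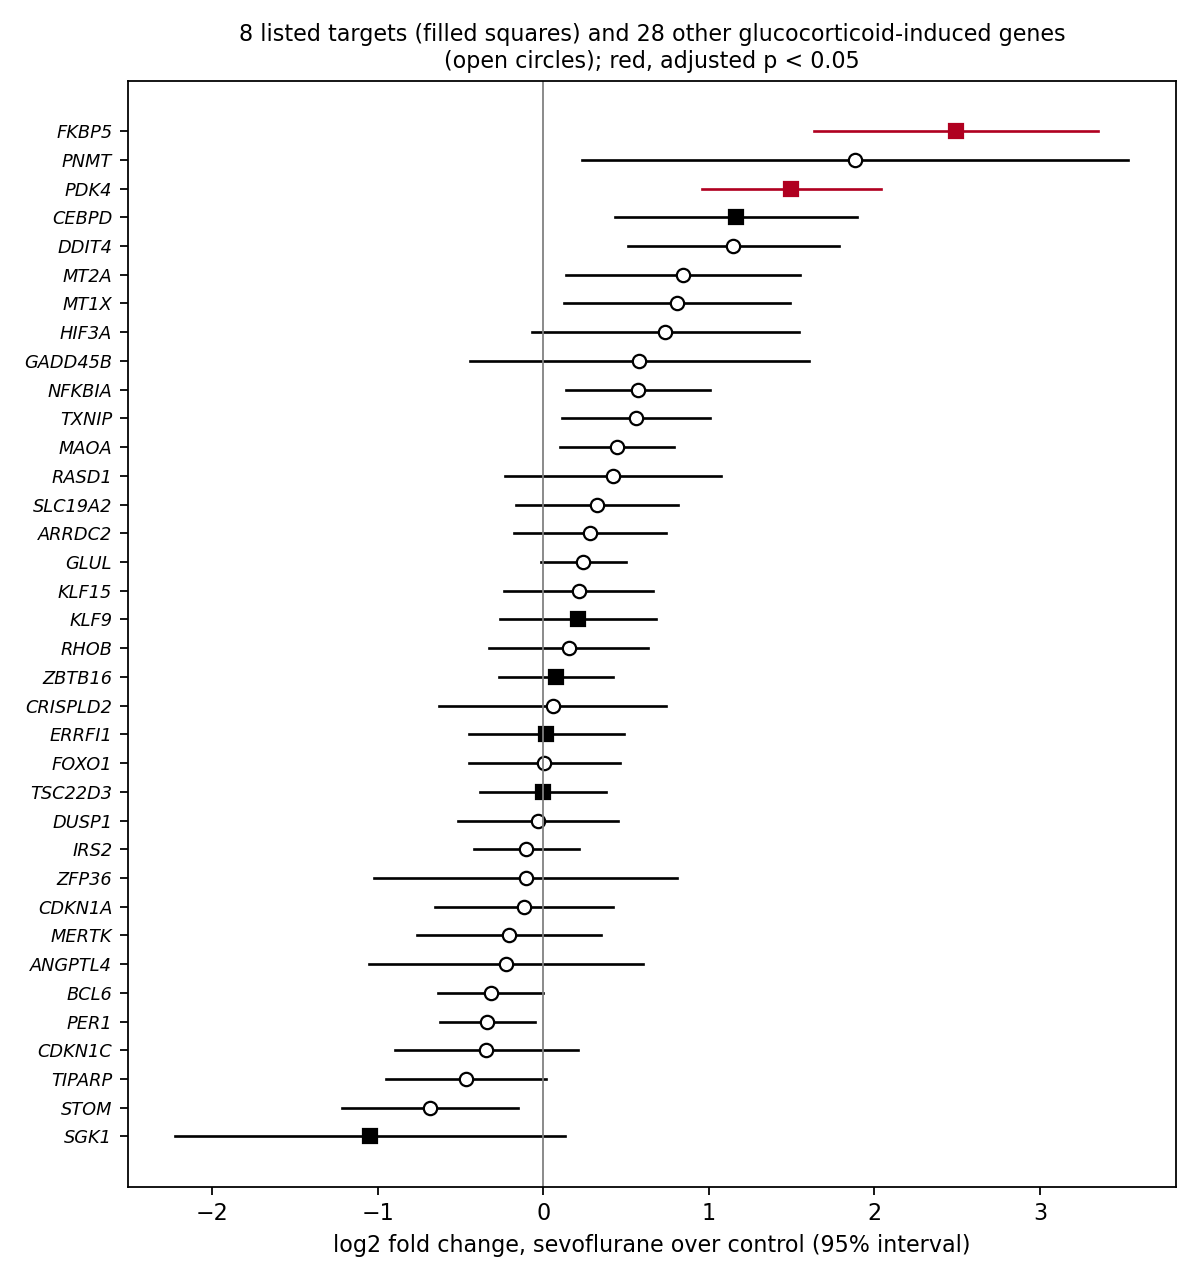
Log2 fold change of sevoflurane over control with its 95% interval (horizontal axis) for 8 listed targets (filled squares) and 28 other glucocorticoid-induced genes (open circles), sorted by value, with red for an adjusted p under 0.05. The values spread on both sides of 0 with 23 of 36 positive, and FKBP5 and PDK4 are the 2 called genes.

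Taking the 8 targets and the 28 other induced genes as 36 genes, 2 were higher, 0 lower and 34 not called, with a median log2 fold change of 0.18. Of the 36, 23 (63.9%) had a positive value, beside 49.7% of all genes. At an unadjusted p under 0.05, 10 (27.8%) had a positive value and 3 (8.33%) a negative one, beside 4.35% and 5.57% of all genes. Of the 10, 7 were among the 28 other genes, and FKBP5 and PDK4 were already known to be called. The lists were chosen with earlier results of these data known, so these shares are a description. The receptor's repressed targets were mostly near the floor of detection. Of 15 listed, 4 were tested and 11 fell under the filter on low counts, and CCL2 and CSF2 had no read in any library. Of the 4 tested, 3 had a positive value, and the median was 0.10. ICAM1, an adhesion molecule, had 1.14 (SE 0.80), with -0.36 without sevoflurane replicate 2. CRH, which is also in this list, had -0.85. It was the 1 of 4 with an unadjusted p under 0.05, beside 9.92% of all genes.

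CRH, the corticotropin-releasing hormone, which starts the hormonal stress response in the hypothalamus and is made by interneurons in cortex, had 9.31 and 7.04 CPM in sevoflurane replicates 2 and 3, against 14.1 and 15.5 CPM in control replicates 2 and 3. Both sevoflurane libraries were below both controls, as for 20.4% of all genes. The log2 fold change was -0.85 (SE 0.26, 95% interval -1.43 to -0.27), and the gene did not pass (edgeR adjusted p = 0.271). Its receptors CRHR1 (0.19, SE 0.17) and CRHR2 (0.72, SE 0.45) and its binding protein CRHBP (-0.23, SE 0.17) were not called. In all, 0 of 6 tested genes of the CRH and vasopressin system were called by edgeR. CRH was the 1 of 6 with an unadjusted p under 0.05, beside 9.92% of all genes.

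The receptor's chaperone complex was represented by 17 tested genes, of which 0 were called by edgeR (median 0.04). An unadjusted p under 0.05 was found for 2 of 17, beside 9.92% of all genes. HSP90AA1, the stress-inducible heat shock protein 90, had 148 and 146 CPM in sevoflurane replicates 2 and 3, against 107 and 129 CPM in controls (0.32, SE 0.14, edgeR adjusted p = 0.493). FKBP4 encodes FKBP52, the relative of FKBP51 that favours receptor activity. It had 8.54 and 6.28 CPM in sevoflurane replicates 2 and 3, against 8.59 and 18.4 CPM in control replicates 2 and 3 (-0.85, SE 0.37, edgeR adjusted p = 0.496). The gap between groups was narrow, and without control replicate 3 FKBP4 had -0.21.

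Among coregulators of the receptor, 0 of 20 were called by edgeR, with 0 at an unadjusted p under 0.05, and values ran from -0.27 for the coactivator NCOA3 to 0.22. Among genes of steroid supply and clearance, 0 of 5 tested were called and 0 had an unadjusted p under 0.05. HSD11B1, which regenerates active cortisol inside cells, had 8 and 8 reads in sevoflurane replicates 2 and 3, against 5 and 1 reads in controls, and was under the filter. HSD11B2, which inactivates cortisol, had 6 and 27 reads in sevoflurane replicates 2 and 3, against 6 and 2 reads in controls, and was also under it. H6PD, which supplies cofactor to HSD11B1, had -0.30 (SE 0.16), SRD5A1, a steroid reductase, 0.36 (SE 0.19) and ABCB1, an efflux pump of the blood-brain barrier that exports cortisol, -0.23 (SE 0.18). Of 5 tested nuclear receptors for sex steroids and their orphan relatives, 0 were called and 0 had an unadjusted p under 0.05.

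PDK4 has 3 sister kinases that act on the same enzyme. PDK1, a hypoxia-responsive member, had 13.5 and 27.7 CPM in sevoflurane replicates 2 and 3, against 12.9 and 9.68 CPM in control replicates 2 and 3 (0.86, SE 0.34, edgeR adjusted p = 0.432), and its value rested on sevoflurane replicate 3. Without that library PDK1 had 0.25 (edgeR adjusted p = 1), and without sevoflurane replicate 2 it was called (1.29, edgeR adjusted p = 0.0146). PDK2 (0.07, SE 0.15) and PDK3 (-0.03, SE 0.26) had values near 0. Of 12 tested genes of pyruvate dehydrogenase and its regulators, 0 were called by edgeR. An unadjusted p under 0.05 was found for 2 of 12, beside 9.92% of all genes. These were PDK1 and DLD (0.36), a subunit shared with other dehydrogenases. Of 18 tested genes of fasting, PPAR and FOXO signalling, which also drive PDK4, 0 were called (list median -0.08). An unadjusted p under 0.05 was found for 6 of 18, with values of both signs, beside 9.92% of all genes. Among these were FOXO3 (0.37), a transcription factor held back by insulin, and UCP2 (-0.82), a mitochondrial carrier. TXNIP and BCL6 were also among them and were already counted with the other induced genes, since the lists share genes.

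ERRFI1 lies in the EGF receptor pathway, where 5 of 15 tested genes were lower, beside 0.537% of all genes. In that list 0 were higher and 10 not called (median -0.48). The called genes were DUSP6 (-1.56), DUSP4 (-2.34), SPRY4 (-1.47) and SPRED2 (-0.82), which damp ERK signalling and are mostly induced by it, and ERBB3 (-1.84), a receptor for neuregulins. SPRED2 was not called without sevoflurane replicate 3 (-0.68, edgeR adjusted p = 0.228). Beside them ERRFI1 had 0.02, with an interval from -0.45 to 0.49.

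For relatives of the other targets, no gene was called by edgeR. The counts at an unadjusted p under 0.05 that follow stand beside 9.92% of all genes. Of 3 TSC22 relatives, TSC22D4 had -0.63 (SE 0.16, edgeR adjusted p = 0.168), TSC22D1 0.22 and TSC22D2 -0.06, and 1 had an unadjusted p under 0.05. TSC22D4 was called without control replicate 2 (-0.80, edgeR adjusted p = 0.0283). Of 9 tested relatives and substrates of SGK1, 3 had an unadjusted p under 0.05, in both directions. They were FXYD1 (-0.51), a regulator of the sodium pump, the ubiquitin ligase NEDD4 (-0.59) and its relative NEDD4L (0.30), a substrate of SGK1 (list median -0.15). Of 14 KLF and CEBP relatives, 2 had one, KLF2 (-0.75) and KLF10 (-0.48), and the median was -0.12.

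**Figure D5:**
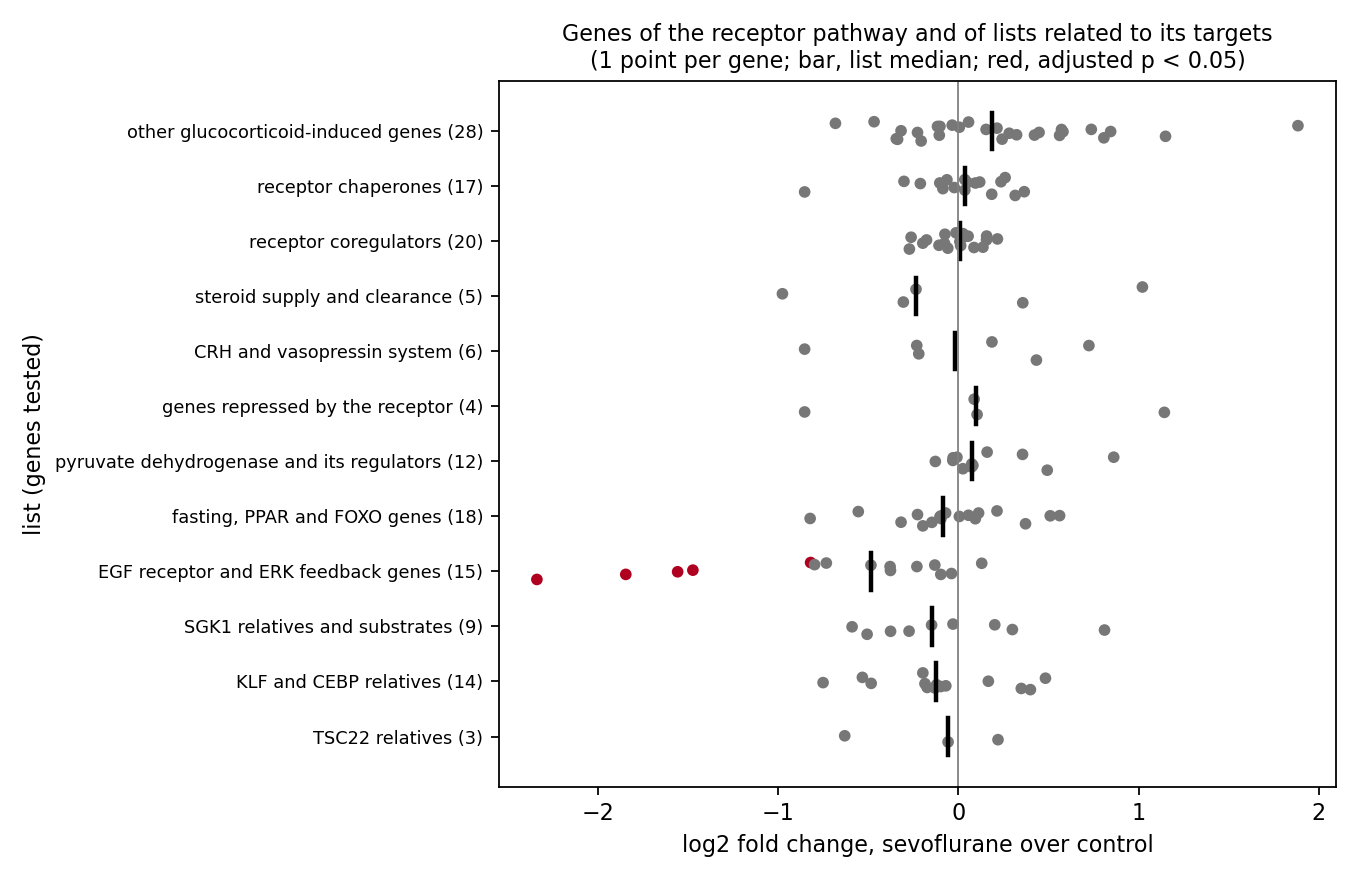
Log2 fold change of sevoflurane over control (horizontal axis) of each tested gene in 12 lists of the receptor pathway and of relatives of its targets, with a bar at the list median and red for an adjusted p under 0.05. Called genes appear in the list of EGF receptor and ERK feedback genes alone, where 5 of 15 are lower, beside 0.537% of all genes. The medians of the other lists lie between -0.23 and 0.18.

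The genes most like FKBP5 and PDK4 in pattern were taken by the smallest Euclidean distance between deviations from the 4-library mean (log2 CPM), among genes with a symbol and a mean of at least 1 CPM. Nearest to FKBP5 were GPR35, ACOT12, SLC12A3, CAPN11 and SPPL2C, at distances from 0.0902 to 0.806 over 4 libraries. None of these 5 was called, and GPR35 and ACOT12 averaged only 1.38 and 1.40 CPM. Nearest to PDK4 were OVGP1, EMILIN3, SDS, MAFF and SLC6A13, at distances from 0.149 to 0.271. Of these, SDS (1.47, edgeR adjusted p = 0.0251) and SLC6A13 were called. OVGP1 was called without sevoflurane replicate 3 (edgeR adjusted p = 0.0389), and SLC12A3 without sevoflurane replicate 2 (5.82e-07). The distances rest on 4 libraries in 2 groups, how many genes share such a pattern was not counted, and the likeness is a description.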

How the data were processed

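RNA-seq counts of 4 libraries of macaque prefrontal cortex, 2 sevoflurane and 2 control, were analysed. The authors deposited raw read counts per gene for the 4 libraries in a single table. The submitters' processing notes name HISAT2 as the aligner. How reads were counted, on which build and annotation and with which strand setting, is not given in the sources, so overlapping genes and near-identical copies are uncertain. No genome sequence was used. The analysis used edgeR 4.0.16 under R 4.3.3: default filter (10 counts at the median depth, 15 in total), TMM scaling (factors 0.969 to 1.02) and the two-sided quasi-likelihood F test on group, adjusted over 17693 genes. Intervals are 95% intervals of that fit. Log2 CPM used a prior count of 2. Alternatives used limma 3.58.1 and DESeq2 1.42.0, and the steps were tested on simulated counts. With 2 libraries against 2, the smallest two-sided exact permutation p is 0.333, so no test was made on single values.

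The 10 members and 22 further gene lists were chosen with earlier results of these data known. Over all lists 338 genes were named, of which 6 were matched by RefSeq gene number and 6 were not matched. Named were all members, a fixed set (among them PER1, DDIT4, DUSP1, NFKBIA, FKBP4, CRH and PDK1), the called genes of each list or otherwise up to 2 with the smallest p, and the 5 genes most like FKBP5 and PDK4. Not every gene so chosen is printed, and MAOA, TXNIP, MT2A, MT1X, STOM, BCL6, PNMT, TSC22D2, NEDD4L, CRHR1, CRHBP, ABCB1, CCL2 and CSF2 were chosen after their values were seen. Lists were described by counts and medians, with no set test.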

Additional observations from a re-analysis of the deposited data

How the results depend on the processing

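Values below are edgeR log2 fold changes, counts of called genes or list medians, and the cause of a change was not tested. FKBP5 was not called with no filter (2.49) or by limma-voom (2.49), and ranged from 2.06 to 2.85 with 1 library left out. PDK4 was not called with no filter (1.50), and ranged from 1.39 to 1.60. Thus 0 members were higher with no filter and at adjusted p under 0.01, 1 by limma-voom, and 1 to 2 with 1 library left out. Where 1 library is left out, the lone library of its group is assumed to vary like the other group. Some members turned sign. TSC22D3 was 0.014 with library size alone and 0.0021 with the stricter filter (1 CPM in 2 libraries, mean of 5 CPM). With 1 library left out, TSC22D3 ran from -0.13 to 0.12, NR3C2 from -0.46 to 0.046 and ZBTB16 from -0.0078 to 0.16. In the same fits KLF9 ran from -0.10 to 0.59 and ERRFI1 from -0.22 to 0.23. The sign also turned there for DUSP1 (-0.24 to 0.18), PDK2 (-0.079 to 0.24), PDK3 (-0.19 to 0.13) and CLDN5 (-0.20 to 0.12). ICAM1 (-0.36 to 2.44), CD3E (-0.31 to 1.44) and TSC22D2 (-0.20 to 0.077) did the same. Over all genes, higher and lower calls (11 and 95) were 3 and 57 with no filter, 60 and 219 by DESeq2, 137 and 304 by the likelihood ratio test, 33 and 170 at adjusted p under 0.1, 1 and 16 at under 0.01, and 27 to 81 and 118 to 232 with 1 library left out; limma-voom gave 7 higher.

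The labels do not say that equal replicate numbers mark a shared animal, litter or day, so the numbers were not taken to pair libraries. Deviations of same-numbered libraries had r = 0.00898 across 17693 genes. With 2 libraries per group, this value cannot show whether same-numbered libraries share an origin. With the replicate block, 170 genes were higher and 341 lower, and calls among other lists were 2 higher induced genes, 1 higher fasting gene, 1 lower TSC22 relative, 3 lower astrocyte, 1 lower endothelial, 1 higher pericyte and 8 higher meningeal markers, 12 lower immediate early genes, 7 lower EGF receptor genes, 18 lower oligodendrocyte markers and 2 lower microglia markers, with 0 in the remaining lists. No call among the 10 members changed with the block.

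In the lists, 1 other induced gene was called by DESeq2 and by the likelihood ratio test, and 0 to 1 with 1 library left out, as for fasting genes, pyruvate dehydrogenase, TSC22 relatives (1 lower by the likelihood ratio test), endothelial markers (likewise 1) and pericyte markers. Lower astrocyte markers were 2 with DESeq2's size factors, the stricter filter and limma-voom, 3 by DESeq2 and the likelihood ratio test, and 1 to 4 with 1 library left out. Higher meningeal markers were 0 with library size alone, no filter and limma-voom, 2 by the likelihood ratio test and 0 to 9 with 1 library left out. Lower microglia markers were 1 with library size alone and no filter, and 1 to 2 with 1 library left out, and higher neuron markers 0 to 3. List medians with 1 library left out ran from -0.63 to 0.88 for repressed genes, -0.31 to 0.14 for steroid supply (0.061 with no filter), -0.80 to -0.36 for EGF receptor genes, -2.09 to -1.48 for oligodendrocytes, 0.13 to 1.48 for meninges, -0.13 to 0.27 for neurons, -1.29 to -1.21 for immediate early genes and -0.013 to 0.29 for blood cells (-0.11 with the stricter filter). The filter on low counts was applied anew in each fit, so the genes behind a list median could differ between fits. With all libraries the medians of immediate early genes and blood cells were -1.49 and 0.74, outside the ranges above. Steroid nuclear receptors had 0.35 with no filter. The other 105 member values kept their sign and side of the threshold.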
